A study of Mus musculus with 2 samples.

Results

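Isolated CTCF peaks are those that sit alone in a long stretch of chromosome without another called site. They were taken from the deposited peak positions, separately in each list: an autosomal peak was a member when the centres of its nearest neighbours on the left and on the right, in the same list, both lay more than 100 kb away, and the first and last peak of each chromosome were left out. In embryonic stem cells (ESC) 1803 of 52656 autosomal peaks were isolated (3.42%, 95% interval 3.27 to 3.58), and in neural precursor cells (NPC) 1760 of 50195 (3.51%, 3.35 to 3.67). The whole lists, sex chromosomes included, held 54151 and 51421 peaks. The ESC were E14 (E14Tg2A, IB10) mouse cells grown with leukemia inhibitory factor and conditioned medium, and the NPC were derived from these ESC and grown with basic FGF and EGF. No allele, transgene or drug is named in the labels for either cell type. CTCF-bound DNA was precipitated with the same antibody (Millipore 07-729) in both, and each cell type was 1 library, so no p-value is given, differences are between these libraries, and intervals cover counting error over peaks only.

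CTCF is a zinc-finger protein that binds a long DNA motif and stops the cohesin complex as it extrudes chromatin, so that convergent CTCF sites often mark the ends of loops and of topologically associating domains. CTCF sites are dense in gene-rich chromatin and thin out in gene-poor chromatin, much of which lies at the nuclear lamina. A site with no other CTCF site near it has no close partner for a short loop. Genes and sequence were not used here, so these peaks are described by position, score, width and their counterpart in the other cell type. The score is the value that the authors deposited for each peak; its definition is not given in the sources used here, and it was compared within a list only.

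Isolated peaks had lower scores than the other autosomal peaks in both cell types. In ESC their median score was 344 (325 to 376, n = 1803) against 538 (529 to 545, n = 50853) for all other autosomal peaks, and in NPC it was 251 (238 to 264, n = 1760) against 399 (395 to 405.5, n = 48435). The interquartile range ran from 182 to 725 in isolated ESC peaks and from 150 to 512 in isolated NPC peaks, so the distributions overlapped widely. The median isolated peak stood at the 37.2 percentile of the ESC autosomal scores and at the 36.0 percentile of the NPC scores. The isolated median was the lower one on 19 of 19 autosomes in each list, with intervals that did not overlap on 9 autosomes in ESC and 11 in NPC. The smallest difference was on chromosome 10 in ESC, with 502 (361 to 639) for isolated peaks against 527 (489 to 562) for the others. The same held at close range: 62.1% (59.8 to 64.3) of isolated ESC peaks and 65.4% (63.1 to 67.6) of isolated NPC peaks scored below the median of the other peaks in their own 10 Mb segment.

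Isolation was rarest among the strongest peaks. Each list was divided by score into 10 groups of equal size (score deciles, 1 the lowest and 10 the highest). In ESC the share of peaks that were isolated was nearly level over the lowest 4 deciles, from 4.41% to 4.56%, then declined to 3.06% in decile 8, 1.52% in decile 9 and 0.931% (0.689 to 1.23) in the highest. In NPC it went from 5.26% (4.66 to 5.91) in the lowest decile to 0.837% (0.604 to 1.13) in the highest, each decile lower than the one before. The highest decile therefore held 49 isolated ESC peaks and 42 isolated NPC peaks, whereas the lowest held 236 and 264.

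The isolated peaks lay at the end of a continuous range. For peaks with a neighbour within 5 kb the median score was 593 (578 to 606) in ESC and 463 (452 to 477) in NPC. With the nearest neighbour 20 to 50 kb away it was 482 (467 to 497) and 343 (333 to 352), at 100 to 200 kb it was 386 (350 to 419) and 258 (242 to 274), and beyond 200 kb it was 297 (267 to 327) and 234 (203 to 259). Score thus declined at every step of distance in both lists, and nothing in these values marks 100 kb as a break. Peaks with a gap of over 100 kb on 1 side only had intermediate medians, 467 (453 to 483) in ESC and 328 (317 to 340) in NPC. Among the 3 ESC peaks just inside the limit, with neighbours at 100.1 to 100.2 kb, the scores were 164, 1128 and 369, and the 3 just outside, at 99.9 kb or more, scored 422, 1524 and 1309. In NPC the 3 inside scored 102, 171 and 139 and the 3 outside 163, 898 and 1129.

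**Figure D1:**
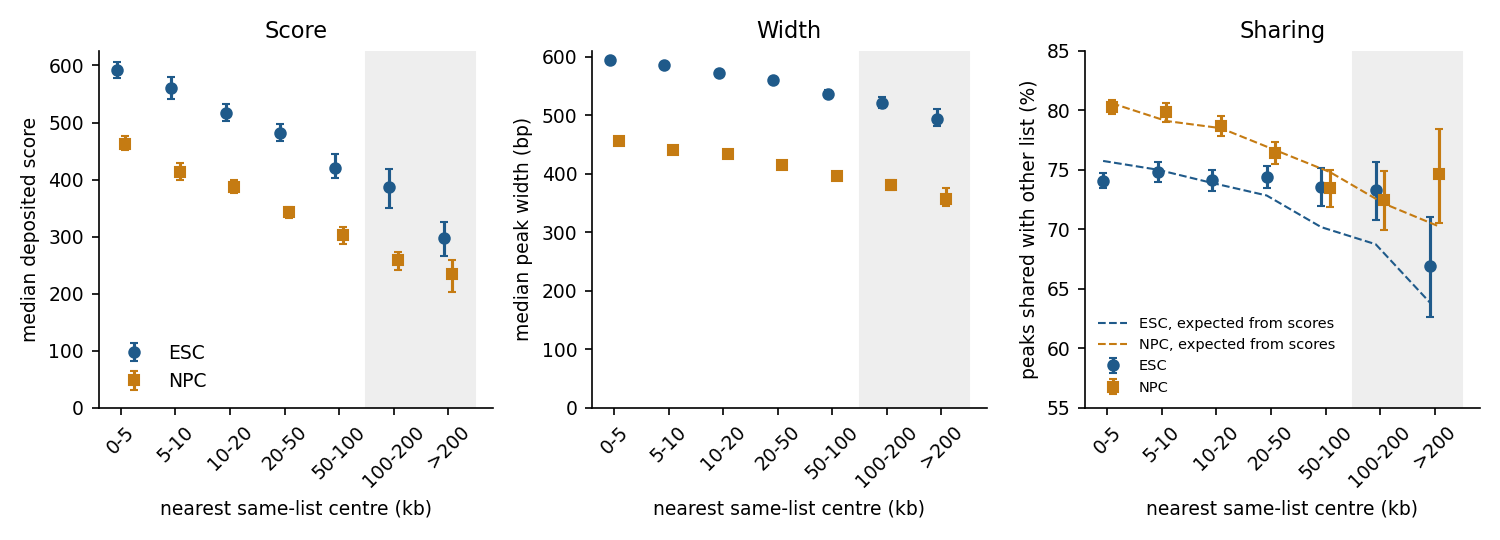
Median score (left), median width in bp (middle) and percentage of peaks shared with the other list (right) for autosomal peaks grouped by distance to the nearest same-list peak centre in kb; ESC are circles and NPC squares, bars are 95% intervals over peaks, dashed lines give the shared percentage expected from score deciles, and shading marks isolated peaks. Median score falls from 593 to 297 in ESC and from 463 to 234 in NPC, while sharing stays between 73.3% and 74.8% in ESC up to 200 kb and is 66.9% beyond, and in NPC falls from 80.3% to 72.5% at 100 to 200 kb and is 74.6% beyond.

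Isolated peaks were also narrower. Their median width was 515 bp (506 to 522) in ESC, against 579 bp (577 to 581) for the others, and 376 bp (369 to 383) in NPC, against 437 bp (435 to 439). Width moves with score in these lists, so it was compared within score deciles as well, where the isolated median was the smaller one in 10 of 10 deciles in ESC and 10 of 10 in NPC. The differences were small, and the intervals overlapped in some deciles of each list. In ESC decile 6 the medians were 603 bp (588 to 613) for isolated peaks and 606 bp (602 to 608) for the others. In the second ESC decile the medians were 415 bp (398 to 429) and 430 bp (428 to 433), and in the highest decile 713 bp (687 to 730) and 776 bp (773 to 779). With 50 score bins in place of 10, a check added after seeing the data, the mean isolated width was 518 bp against 539.8 bp expected in ESC and 384 bp against 403 bp in NPC.

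Most isolated sites were bound in the other cell type too. Sharing meant an overlap of 1 bp or more with any peak in the other cell type. Of the isolated ESC peaks 1289 (71.5%, 69.3 to 73.6) were shared, against 74.2% of all autosomal ESC peaks, and of the isolated NPC peaks 1286 (73.1%, 70.9 to 75.1), against 78.5% of all autosomal NPC peaks. Both isolated shares were below that of the other autosomal peaks, which was 74.3% (73.9 to 74.6) in ESC and 78.7% (78.4 to 79.1) in NPC. By chromosome the isolated share was the lower one on 12 of 19 autosomes in ESC and 15 of 19 in NPC.

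Among peaks of like score, isolated peaks were shared at least about as often as the others, and more often in the lower part of the ESC list. In the lowest ESC score decile 36.9% (30.7 to 43.4) of isolated peaks were shared against 33.0% (31.7 to 34.3) of the others, and in the second decile 49.6% (43.1 to 56.1) against 40.6% (39.2 to 41.9). Decile 3 had the widest difference, 62.9% (56.4 to 69.0) against 52.4% (51.0 to 53.8), and the fourth had 69.8% (63.5 to 75.7) against 63.1% (61.8 to 64.5). From the fifth decile upward the classes lay within 2 percentage points of each other. All isolated peaks of deciles 9 and 10, 80 and 49 in number, were shared, against 98.8% and 99.5% of the others. The isolated share was the higher one in 9 of 10 ESC deciles, but its interval lay clear of the others' interval only in deciles 2 and 3.

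In NPC the isolated and other peaks were closer. The lowest decile had 44.3% (38.2 to 50.5) against 45.2% (43.8 to 46.6), the fourth 74.5% (68.2 to 80.2) against 70.1% (68.8 to 71.4), and the sixth 90.8% (85.7 to 94.6) against 86.7% (85.8 to 87.7). The isolated share was the higher one in 7 of 10 deciles, and the intervals overlapped in every decile. In the highest decile 41 of 42 isolated NPC peaks were shared (97.6%, 87.4 to 99.9), against 99.7% of the others.

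**Figure D2:**
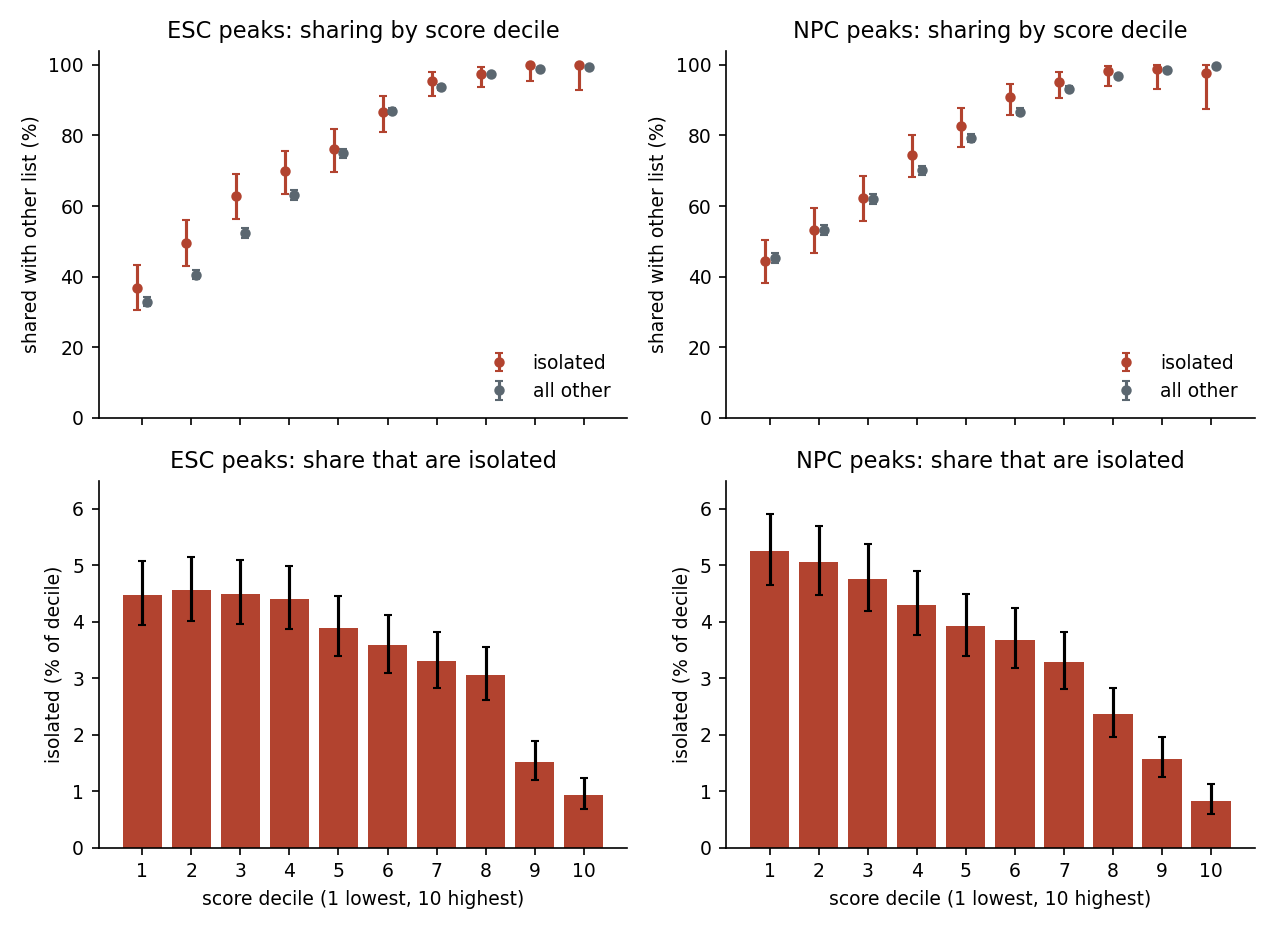
Top, percentage of peaks shared with the other list in each score decile (1 lowest, 10 highest) for isolated peaks and all other autosomal peaks; bottom, percentage of each decile that is isolated; ESC left, NPC right, bars are exact 95% intervals over peaks. Isolated ESC peaks lie above the others in the lower deciles (62.9% against 52.4% in decile 3), and isolation falls to 0.931% and 0.837% of peaks in the highest decile.

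Weighted over deciles, the other peaks gave an expected shared percentage of 67.2% for the isolated ESC peaks, 4.32 points below the observed value (interval of the difference 2.18 to 6.40). For the isolated NPC peaks the expected percentage was 71.6%, 1.51 points below the observed value (-0.631 to 3.57). The difference between the cell types was not tested, and these intervals overlap. In ESC it came from the lower 50% by score, with 58.5% observed and 52.1% expected (6.41 points, 3.51 to 9.28), against 94.3% and 93.7% in the upper 50%. Both values rest on how sharing is defined. With an overlap of 50% of both peaks required, chosen for this value after seeing the data, the difference was 4.15 points (1.92 to 6.33) in ESC and 3.57 points (1.31 to 5.77) in NPC. With peaks within 1 kb of each other called shared, it was 1.58 points (-0.564 to 3.66) in ESC, and in NPC it turned to -0.82 points (-2.96 to 1.24), because no isolated peak gained a counterpart under that definition while other peaks did. Against only those other peaks that had no neighbour within 10 kb, chosen after seeing the data, the ESC value was 2.72 points (0.579 to 4.80). Peaks with a neighbour within 5 kb were shared 1.65 points less often in ESC than the score deciles of all autosomal peaks give. By that measure ESC peaks with the nearest neighbour at 50 to 100 kb, not isolated, were shared 3.40 points more often. The ESC value was 4.54 points at 100 to 200 kb and 3.11 beyond, so the excess was not particular to isolated peaks. In NPC the values were -1.33 points at 50 to 100 kb, 0.329 at 100 to 200 kb and 4.40 beyond.

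The gaps around isolated sites were largely empty in the other cell type as well. Apart from the overlapping peak itself, 1255 of the 1803 isolated ESC peaks (69.6%, 67.4 to 71.7) had no NPC peak within 100 kb, against 3.70% of all autosomal ESC peaks. Of the isolated NPC peaks 1203 (68.4%, 66.1 to 70.5) had no ESC peak within 100 kb, against 3.75% of all autosomal NPC peaks. Since most peaks are shared, a peak with few neighbours in its own list has few in the other for that reason alone, and the contrast with the background is a description. The density of NPC peaks within 20 kb of an isolated ESC peak was 0.24 per 100 kb, against 4.17 per 100 kb around other ESC peaks. From 100 to 120 kb it was 0.879 and from 400 to 420 kb 1.19, still below the 3.19 around other peaks at that distance. The average over all autosomes, 20.8 NPC peaks per Mb, lay between the values at 400 to 420 kb. The sparse surroundings thus reached well past the limit that defined the peaks, and the values around isolated NPC peaks were alike: 0.253 ESC peaks per 100 kb within 20 kb and 1.18 from 400 to 420 kb.

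**Figure D3:**
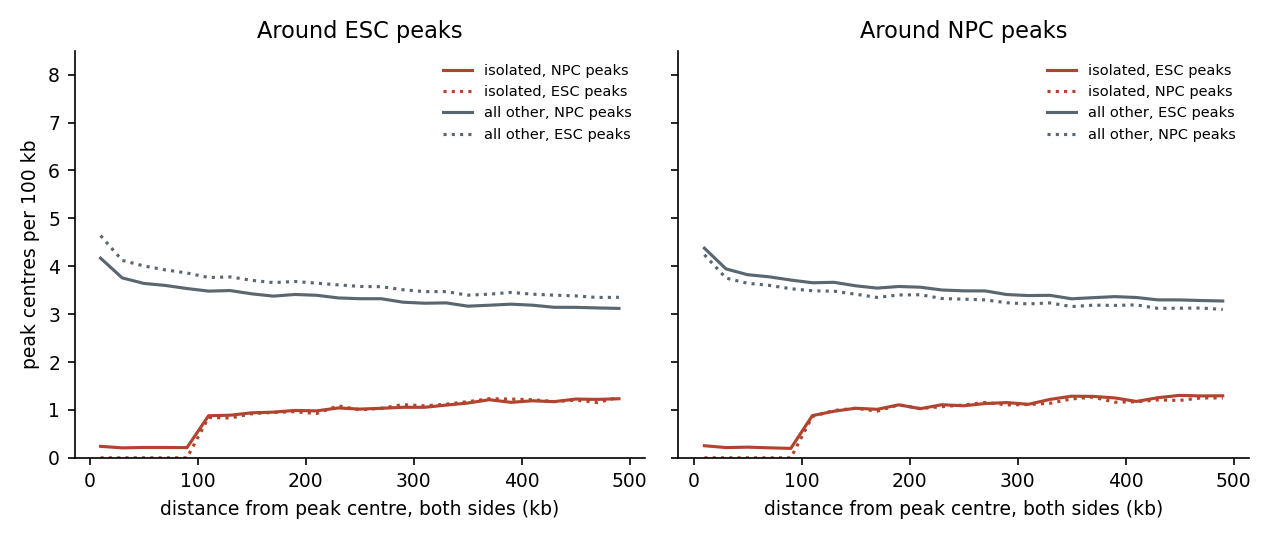
Peak centres per 100 kb against distance from the peak centre in kb, both sides together, around isolated peaks and all other autosomal peaks; solid lines count peaks of the other list without the overlapping one, dotted lines count peaks of the same list, which are 0 within 100 kb of isolated peaks by the rule. Around isolated ESC peaks the NPC density is 0.24 near the centre and 1.19 at 400 to 420 kb, below the 3.19 around other peaks.

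The isolated sites fell into 3 classes by their counterpart. At 868 sites the peak was isolated in both lists, which is 48.1% (45.8 to 50.5) of the isolated ESC peaks and 49.3% (47.0 to 51.7) of the isolated NPC peaks. A further 421 ESC peaks (23.3%) were shared with an NPC peak that was not isolated, and 418 NPC peaks (23.8%) with an ESC peak that was not isolated. No counterpart was found for the other 514 ESC peaks (28.5%) and 474 NPC peaks (26.9%). Over all autosomal peaks 25.8% in ESC and 21.5% in NPC had none. Among autosomal peaks that were not isolated, 0.822% in ESC and 0.877% in NPC had an isolated counterpart. Since most sites are shared, the contrast with the 48.1% and 49.3% is a description. The part of shared isolated ESC peaks whose NPC counterpart was isolated went from 63.5% (59.8 to 67.2) with a neighbour at 100 to 150 kb to 79.7% (71.7 to 86.3) with none within 300 kb. For isolated NPC peaks it was 63.0% (59.2 to 66.8) at 100 to 150 kb, 71.7% at 150 to 200 kb, 70.4% at 200 to 300 kb and 74.8% (67.4 to 81.4) beyond. The groups are set by the distance that the rule uses, and most sites are shared. Some rise is therefore built in, and these values are a description. Sharing itself went from 74.2% (71.2 to 77.0) to 64.6% (57.6 to 71.3) between the nearest and the farthest of these groups in ESC, and from 72.9% (69.9 to 75.8) to 77.9% (71.6 to 83.4) in NPC; the difference between the lists was not tested.

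Peaks of the other list within 100 kb of isolated sites, with or without a counterpart, were about as weak as unshared peaks in general. Within 100 kb of isolated ESC peaks lay 761 other NPC peaks, none of which overlapped an ESC peak, as the rule itself leaves no ESC peak there to overlap. Their median score was 167 (158 to 174), against 168 (166 to 169.8) for all autosomal NPC peaks without an ESC overlap, and 9.86% of them scored above the median of the autosomal NPC peaks. Around isolated NPC peaks lay 733 other ESC peaks, whose median score was 185 (173 to 196), with 193 (189.6 to 196) for all unshared autosomal ESC peaks. Of the 733 peaks, 7.37% scored above the ESC median. The peaks of 1 cell type that filled the surroundings of a site isolated in the other thus scored like the unshared peaks of their own list, to which the rule confines them. The lowest score decile held 25.4% of these NPC peaks and 25.6% of all unshared NPC peaks. In ESC it held 26.2% and 25.9%. The share above the median is not given for all unshared peaks. In their own lists 79 of the 761 NPC peaks and 81 of the 733 ESC peaks were isolated themselves.

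The 868 doubly isolated sites, each a 1-to-1 overlap, ranked lower in both lists than sites isolated in neither. Spearman's rho between their ESC and NPC scores was 0.55, against 0.62 over the 36888 sites isolated in neither list; these are correlations over sites of the same pair of libraries and carry no test. The median score was 502 (462 to 553) in ESC and 329 (305 to 360) in NPC at the doubly isolated sites, and 762 (754 to 771) and 543 (536 to 551) where neither peak was isolated. As percentiles of the autosomal scores the doubly isolated sites stood at 48.4 (45.9 to 51.4) in ESC and 44.6 (42.3 to 47.5) in NPC, and 498 of the 868 (57.4%, 54.0 to 60.7) had the lower percentile in NPC, against 52.5% (52.0 to 53.0) where neither was isolated. Sites isolated in NPC but not in ESC ranked lower in NPC at 63.2% (58.3 to 67.8), whereas sites isolated in ESC but not in NPC did so at 45.1% (40.2 to 50.0). Against the 52.5% where neither was isolated, both values lay towards a lower rank of the peak that stood alone. The interval for sites isolated in NPC only overlapped that of the doubly isolated sites, however. That for sites isolated in ESC only reached 50.0%. Rank and isolation come from the same called peaks of a library, and a link between them was not tested.

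Strong isolated peaks existed and, like other strong peaks, were mostly found in both cell types. The highest-scoring isolated ESC peak was on chromosome 3 (14381306 to 14382224, 919 bp), where it scored 2723 with neighbours 485 kb and 229.9 kb away. Its NPC counterpart (score 2083, 14381445 to 14382149) was isolated too, with neighbours at 503 kb and 173 kb, and this site ranked best over both lists. The next best doubly isolated sites were on chromosome 14 (23397310 to 23398028, scoring 2105 in ESC and 1971 in NPC), chromosome 6 (141988826 to 141989607, 2165 and 1744), chromosome 3 (126474378 to 126474994, 1832 and 2360) and chromosome 13 (68306553 to 68307135, 1562 and 1854). At these 5 sites no other peak of either list lay within 100 kb.

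Among the highest-scoring isolated peaks named for each list, the lists differed in whether the counterpart was isolated. Most of these ESC peaks had an NPC counterpart that was not isolated. Most of these NPC peaks had an isolated ESC counterpart, among them those at the chromosome 3 and chromosome 14 sites named above. Over all shared isolated peaks the lists did not differ in this way. There the counterpart was isolated for 67.3% (64.7 to 69.9) in ESC and 67.5% (64.9 to 70.1) in NPC. The highest-scoring isolated NPC peak, on chromosome 1 at 7386869 to 7387757, had a score of 3100, the value at which many scores of this list pile up; its ESC counterpart also scored 3100 but had another ESC peak within 100 kb. The ESC peaks on chromosome 18 (score 2604, 9865545 to 9866253), chromosome 16 (score 2463, 56920198 to 56921024), chromosome 8 (score 2386, 80297106 to 80297646) and chromosome 4 (score 2251, 104187243 to 104187781) were shared but had 1, 1, 2 and 3 further NPC peaks within 100 kb. The chromosome 8 site differed most in rank, at the 98.5 percentile in ESC and the 65.4 percentile in NPC. On chromosome 15 the isolated NPC peak at 32367320 to 32367908 scored 2220 (98.1 percentile), and its ESC counterpart, isolated as well, scored 891 (68.3 percentile).

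Peaks bound alone and in 1 cell type only were weak, as unshared peaks were in general. The 514 unshared isolated ESC peaks scored 179.9 (169 to 193) in the median, and other unshared ESC peaks 193 (190 to 196), and 37 of them (7.20%) scored above the ESC autosomal median. The 474 unshared isolated NPC peaks scored 150.5 (145 to 158), and other unshared NPC peaks 168 (167 to 170), and 29 (6.12%) scored above the NPC median. The like share is not given for the other unshared peaks. Their upper quartile, 320 in ESC and 262 in NPC, also lay below the autosomal medians of 529 and 392. None of the unshared isolated ESC or NPC peaks had a peak of the other list within 1 kb. For 383 of the 514 ESC peaks (74.5%, 70.5 to 78.2) and 335 of the 474 NPC peaks (70.7%, 66.3 to 74.7) the other list was empty for 100 kb on either side, so that they were the only peak of either list there. Of the shared isolated peaks, 67.6% (65.0 to 70.2) in ESC and 67.5% (64.9 to 70.1) in NPC had no further peak of the other list there. These intervals overlapped in NPC but not in ESC, and the difference was not tested.

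The strongest of the unshared ESC peaks lay on chromosome 7 (13071219 to 13071735), where it scored 1028 with no NPC peak within 348577 bp. The others named were on chromosome 10 (score 1017, 65810998 to 65811705, NPC peak 21196 bp away), chromosome 17 (score 993, 85868936 to 85869540), chromosome 2 (score 985, 15790881 to 15791591, none within 442352 bp) and chromosome 12 (score 926, 37100160 to 37100761). In NPC the strongest was on chromosome 1 at 83404623 to 83405252, scoring 1448 with an ESC peak 44613 bp away, followed by chromosome 5 (score 1277, 63098130 to 63098586, ESC peak 12309 bp away), chromosome 18 (score 852, 72510661 to 72511195, none within 344499 bp), chromosome 9 (score 786, 26440845 to 26441290) and chromosome 6 (score 683, 102514500 to 102514910). The chromosome 1 peak stood at the 90.7 percentile of the NPC list, above every unshared isolated ESC peak, whose best percentile was 74.3.

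Isolation reached much farther at some sites. The median distance to the nearer neighbour was 149 kb (145 to 153) in ESC and 149 kb (144 to 153) in NPC, and that to the farther neighbour 295 kb (285 to 306) and 293 kb (283 to 304). The most isolated ESC peak was on chromosome 17 at 19026809 to 19027256 (score 339), with nothing in the ESC list for 916 kb, and its NPC counterpart (score 154) was isolated as well. It was followed by peaks on chromosome 4 (27892080 to 27892583, 844 kb), chromosome 16 (53266142 to 53266797, 813 kb), chromosome 4 again (112341915 to 112342355, 693 kb) and chromosome 1 (50086505 to 50087036, 650.4 kb). All 5 had an NPC counterpart, and 4 of those counterparts were isolated. The chromosome 16 peak was the strongest of them, with a score of 1047 in ESC and 533 in NPC.

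The longest reaches were in the NPC list, although the medians of the lists were alike. Its most isolated peak, on chromosome 13 at 88206824 to 88207119 (score 158), had no NPC neighbour for 1267 kb. The next were on chromosome 17 (61460288 to 61460663, 1199 kb), chromosome 14 (83152913 to 83153241, 1191 kb), chromosome 10 (16356848 to 16357182, 1085 kb) and chromosome 1 (102453447 to 102453930, 1072 kb). Of these 5, the chromosome 10 peak (score 306) had no ESC counterpart, and the nearest ESC peak was 640464 bp away. The ESC counterparts on chromosomes 13 and 17 were isolated, and those on chromosomes 14 and 1 were not. The chromosome 17 peak scored 269 in NPC and 1130 in ESC, which are the 38.1 and the 78.4 percentile.

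Gaps of more than 100 kb between neighbouring centres made up 10.8% of the intervals between autosomal peaks in ESC (5661 of 52637) and 11.3% in NPC (5655 of 50176), yet they covered 55.6% and 55.7% of the length from the first to the last peak of each autosome, 1342 Mb and 1343 Mb. Of that length 1193 Mb was common to both lists, 88.9% of the ESC gaps and 88.8% of the NPC gaps. In 3400 ESC gaps (60.1%, 58.8 to 61.3) no NPC peak was found, and the gaps held 2.73 NPC peaks per Mb, against 20.8 per Mb over all autosomes. In 3358 NPC gaps (59.4%, 58.1 to 60.7) no ESC peak was found. Gaps over 1 Mb numbered 71 in ESC and 95 in NPC.

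The 3 widest gaps were on chromosome 7 in both lists and had nearly the same borders: 39325629 to 46447068 (7.12 Mb), 7252707 to 10939925 (3.69 Mb) and 20649859 to 23948504 (3.30 Mb) in ESC. Neither list had a peak inside them. The next in NPC, on chromosome 11 (12890823 to 16161333, 3.27 Mb) and chromosome 12 (22021278 to 25049482, 3.03 Mb), each held 5 ESC peaks, with scores of 102 to 269 and 109 to 251. Peak numbers ran without a break within every autosome in both lists, so no numbered autosomal peak is missing inside a gap. Whether reads could be placed uniquely in these gaps was not tested.

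Isolated peaks often lay next to one another. The rule itself favours this, because a gap of over 100 kb counts for the peaks on both of its sides. No expected value is given for the runs, so they are a description. In ESC 1164 of them (64.6%) directly followed or preceded another isolated peak, and in NPC 1111 (63.1%), and 179 runs of 3 or more were found in each list. The longest ESC run had 10 isolated peaks on chromosome 4 from 35863510 to 39962099, of which 5 were shared. The longest NPC run had 10 peaks on chromosome 2 from 39467772 to 42562006, with 5 shared and scores of no more than 306. Over segments of 10 Mb the 26 richest of 258 held 21.5% of the isolated ESC peaks but 5.29% of all autosomal ESC peaks; these segments were picked for their count. The richest were on chromosome 3 from 40 to 50 Mb and from 110 to 120 Mb with 18 isolated ESC peaks each, where NPC had 16 and 14, and on chromosome 6 from 10 to 20 Mb with 18 isolated NPC peaks, where ESC had 14. Across the 258 segments the counts in the lists had a Spearman's rho of 0.83; both counts rest on sites that are mostly shared.

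The isolated part of a chromosome's peaks differed between autosomes. In ESC it was highest on chromosome 12 (6.03%, 129 peaks), chromosome 3 (5.89%, 153 peaks) and chromosome 14 (5.57%, 113 peaks), and lowest on chromosome 11 (1.51%, 61 peaks) and chromosome 19 (1.83%, 29 peaks). In NPC it was highest on chromosome 3 (5.90%, 147 peaks), followed by chromosome 18 (5.07%, 77 peaks), and again lowest on chromosome 11 (1.83%, 68 peaks). Gaps covered 64.3% of chromosome 3 and 38.5% of chromosome 11 in ESC. Along the chromosomes, isolated peaks made up 4.79% (4.35 to 5.27) of the ESC peaks in the part nearest the first peak, when each autosome was cut into 5 equal parts, and 1.71% (1.51 to 1.94) in the part nearest the last peak. The NPC values were 4.92% (4.46 to 5.42) and 1.87% (1.65 to 2.11), and in both lists the share declined from each part to the next.

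**Figure D4:**
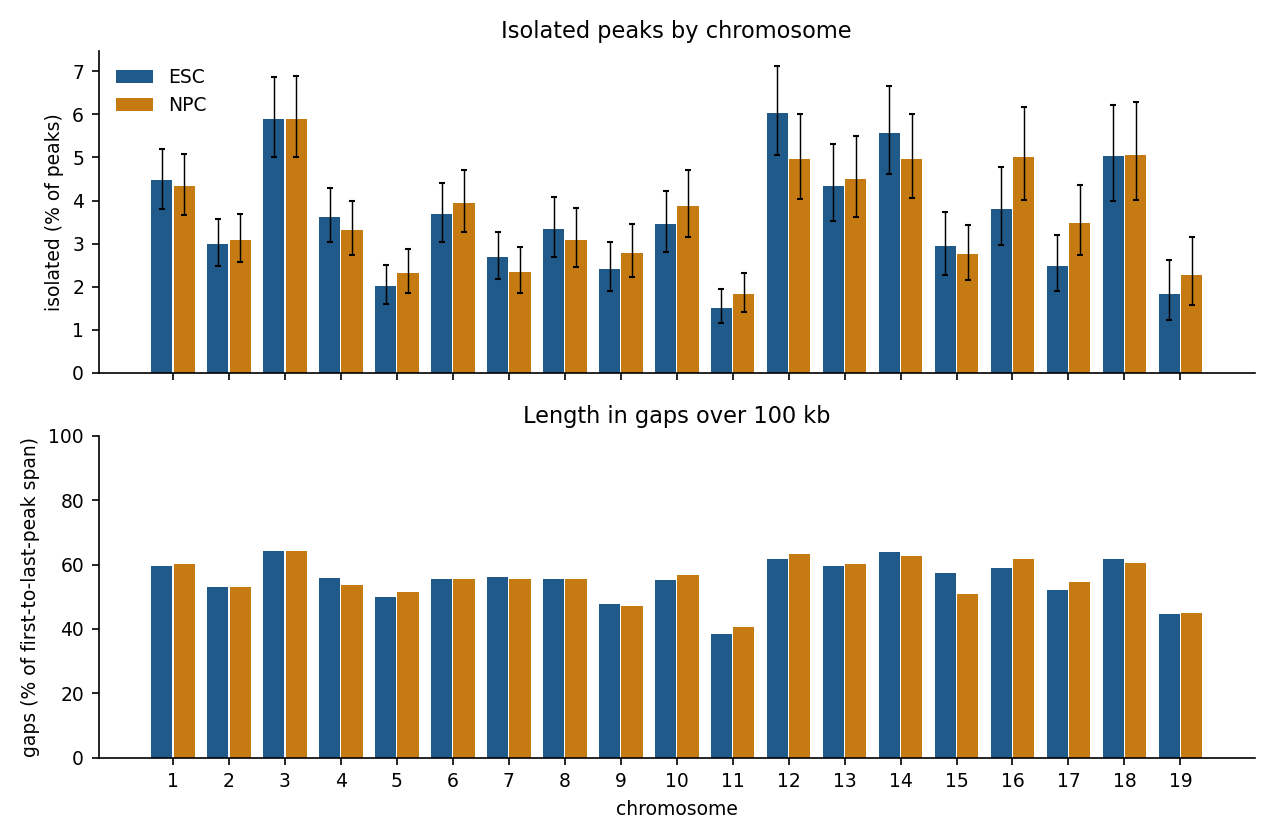
Top, isolated peaks as a percentage of the peaks of each autosome with exact 95% intervals; bottom, length in gaps over 100 kb as a percentage of the span from first to last peak; ESC and NPC side by side. Chromosome 3 has 5.89% and 5.90% isolated peaks and chromosome 11 has 1.51% and 1.83%, and gaps cover 64.3% of chromosome 3 and 38.5% of chromosome 11 in ESC.

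Sharing of isolated peaks on chromosome 15 differed in direction between the lists. There 52 of 65 isolated ESC peaks (80.0%, 68.2 to 88.9) were shared, against 67.0% expected from score deciles, whereas 45 of 74 isolated NPC peaks were (60.8%, 48.8 to 72.0), against 71.4% expected. The other peaks of chromosome 15 differed between the lists in the same direction, with 84.2% shared in ESC and 69.9% in NPC. Against these other peaks the isolated share was the lower one in both lists. Each of these values lay inside the interval of the isolated peaks. Chromosome 15 had 2209 ESC peaks and 2692 NPC peaks, whereas every other autosome had fewer peaks in NPC than in ESC. The part of this in the sharing values was not tested. Chromosome 17 had the highest share for isolated NPC peaks, 64 of 73 (87.7%, 77.9 to 94.2) against 71.8% expected, with 81.3% for the other NPC peaks of that chromosome, a value inside this interval. Without chromosome 15 the shared percentage of isolated peaks was 71.2% in ESC and 73.6% in NPC.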

How the data were processed

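CTCF ChIP-seq was deposited as 1 peak list for each of 2 libraries, E14 ESC and E14 NPC (SOLiD sequencing, per the labels' protocols). The caller was MACS, per the file headers. The build is mm9, per the submitters' processing notes. Each peak carries a score that the authors deposited; for its definition, as for the aligner, control and threshold, the sources used here say nothing. No score is under 100.0, and read depth is unknown. The 6 peak numbers absent from the ESC list fall outside the run of autosomal peaks. Isolated peaks, overlaps and gaps were computed with scipy 1.17.1, numpy 2.4.6 and pandas 2.3.3 under Python 3.11.15, and plotted with matplotlib 3.10.9. Score deciles were formed over autosomal peaks. Shares carry exact Clopper-Pearson 95% intervals and medians order-statistic intervals; both treat peaks as independent. The interval of an observed-minus-expected share treats the expected share as fixed. The members, lists and rules were chosen with earlier results of these data known. Peaks named in the text are, for each list, the 5 with the farthest nearest neighbour, the 5 isolated and the 5 unshared isolated peaks with the highest score, the 5 widest gaps (the text gives those of chromosome 7, 11 and 12), the 3 on each side of the limit, and the 5 best-ranked sites isolated in both. The code was tested on simulated data. No sequence is printed and no gene assigned, because the gene tables used elsewhere are on another build.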

Additional observations from a re-analysis of the deposited data

Results flagged for a closer look

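Isolated peaks were also counted on chromosome X, which the autosomal comparison does not use. By the same distance rule 163 of its 1492 ESC peaks were isolated (10.9%, 9.39 to 12.6) and 168 of its 1226 NPC peaks (13.7%, 11.8 to 15.8), a larger part than on any autosome. Their median score was 261 (217 to 293) in ESC and 199 (181 to 235) in NPC. Of the isolated ESC peaks on chromosome X 98 (60.1%, 52.2 to 67.7) were shared, and of the isolated NPC peaks 138 (82.1%, 75.5 to 87.6). The other chromosome X peaks were shared at 68.6% (66.1 to 71.1, n = 1329) in ESC and 82.7% (80.3 to 84.9, n = 1058) in NPC, so the lists differed in the same direction there, and the isolated and other intervals overlapped in each list.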

How the results depend on the processing

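The number of isolated peaks in ESC and NPC was 4786 and 4924 with a limit of 50 kb and 508 and 485 with 200 kb; it stayed within 1.5 times of 1803 and 1760 with distances between facing edges, with first and last peaks allowed, with the upper 50% by score (2140 and 2121), with lists of equal length (ESC only, 1851) and with neighbours of either list (1255 and 1203). The median score was 393 and 281 at 50 kb and 297 and 234 at 200 kb, and the median width 528 and 390 bp and 494.5 and 358 bp. The shared percentage was 66.9% in ESC and 74.6% in NPC at 200 kb; in ESC and NPC it was 69.1% and 70.5% where centres lay within 100 bp, 66.4% and 66.9% where 50% of both peaks had to overlap, and 94.2% and 93.2% with the upper 50% by score. The observed-minus-expected share was 1.58 points in ESC and -0.82 points in NPC with peaks within 1 kb, and 4.15 and 3.57 points with 50% reciprocal overlap. Of 51 alternative values, 30 stayed inside the interval, or within 1.5 times of the count, of the value reported. Reciprocal overlap, chromosome 15 and neighbour-free peaks for the expected share, 50 score bins and 10 Mb segments were chosen after seeing the data. Gene and motif comparisons were not run. No paired analysis was possible because each cell type has 1 library, and none could be left out. Depth is unknown, so an empty gap means no peak above the calling limit.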
